A study of Mus musculus with 9 samples.

Results

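Iron storage, uptake and export were followed through 10 genes, taken by symbol from the 36346 genes of the deposited expression table. The 10 genes are Fth1 and Ftl1 (the ferritin chains), Trf, Tfrc, Steap3, Slc11a2 and Slc11a1 (uptake and transport within the cell), and Slc40a1, Cp and Hamp (export and its control). The animals were wild type C57BL/6 mice. RNA of the brain was sequenced 72 h (3 days) after a control treatment (sham), after intracerebral haemorrhage (ICH), or after ICH with pterostilbene (ICH+PTE). Pterostilbene is a plant stilbenoid, a dimethylated relative of resveratrol. Each group held 3 mice, drawn at random from its animals, and each mouse gave 1 library. The labels state neither age nor sex, nor how ICH was made, how pterostilbene was given and at which dose, or which part of the brain was taken. No group received pterostilbene without haemorrhage.

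Iron enters most cells bound to transferrin, which the transferrin receptor carries into endosomes. There a STEAP reductase turns ferric into ferrous iron, and a divalent metal transporter moves it into the cytosol. Ferritin, a hollow shell of heavy and light chains, stores what is not used, and ferroportin is the one known route out, helped by copper oxidases such as ceruloplasmin and shut by the hormone hepcidin. After bleeding into the brain, microglia and macrophages take up red cells and recover the iron of their haem.

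Several of these transcripts carry an iron-responsive element, a hairpin that iron regulatory proteins bind when iron is scarce. Bound in a 5′ untranslated region it blocks translation, and bound in the 3′ untranslated region of Tfrc it protects the RNA. Whole protein-coding transcripts of GENCODE M21 (GRCm38), coding parts included, were searched for it. The pattern asked for an unpaired C, a stem of 5 base pairs (G-T pairs allowed) and a 6-base loop beginning with CAGTG. It matched in 4 of the 10 genes and in 294 of 21877 genes with a coding transcript (1.34%). All matches in the 4 genes lay in untranslated regions, while the 294 genes may include matches in coding parts. An element whose stem or loop departs from this pattern would be missed, so a gene without a match may still carry one. The hairpins are shown because they are what the storage gene, its partner chain, the receptor and the exporter have in common in sequence. Capitals mark the loop, and the unpaired C is the c set apart from it by the 5 bases of the stem.
Fth1, 5′ untranslated region, chr19:9982732-9982761, plus strand: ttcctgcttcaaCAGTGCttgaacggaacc
Ftl1, 5′ untranslated region, chr7:45459778-45459807, minus strand: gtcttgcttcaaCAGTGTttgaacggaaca
Slc40a1, 5′ untranslated region, chr1:45925464-45925493, minus strand: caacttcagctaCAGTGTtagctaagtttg
Tfrc, 3′ untranslated region, chr16:32631219-32631248, plus strand: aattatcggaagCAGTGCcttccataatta
Tfrc, 3′ untranslated region, chr16:32631598-32631627, plus strand: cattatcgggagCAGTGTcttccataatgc
Tfrc, 3′ untranslated region, chr16:32631663-32631692, plus strand: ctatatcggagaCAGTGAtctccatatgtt
Tfrc, 3′ untranslated region, chr16:32631710-32631739, plus strand: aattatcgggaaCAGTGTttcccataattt
The arms of the stem next to the loop read ttcaa and ttgaa in both ferritin chains. A match describes the letters, and the libraries measured RNA levels only, so translation under these elements was not measured.

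Levels are given in FPKM, a fragment count divided by transcript length and library total, which allows levels of different genes to be set side by side. Tests were made with limma on log2(FPKM + 0.5), a scale that understates changes of low genes, and calls were made where the p adjusted by Benjamini-Hochberg over all 15376 tested genes was under 0.05. All 10 genes passed the filter for testing, which asked that 3 libraries or more reach 1 FPKM. Group values are means ± SD over 3 mice, and ± after a log2 difference is its standard error. The first principal component held 71.5% of the variance, and the share of mitochondrially encoded transcripts in summed FPKM was 21.7% to 22.9% for sham, 13.6% to 16.7% for ICH mice and 25.5% to 28.9% for ICH+PTE mice. The replicates are separate mice. Sequencing depth is unknown, since the low FPKM values did not fall on steps of whole reads. In bulk brain tissue, fewer cells of a type and less RNA per cell cannot be told apart.

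After ICH 7 of the 10 genes were higher than in sham, namely Ftl1, Slc11a1, Cp, Fth1, Trf, Slc40a1 and Steap3, and 0 were lower. Of all tested genes 63.7% were called in this comparison, 31.6% as higher and 32.1% as lower, so the share of iron genes called was close to the background, while each of the 7 was higher. The libraries of the groups did not overlap for 7 of the 10 genes, as for 73.5% of all genes. Their median log2 difference was 1.64, against -0.02 over all tested genes. In ICH+PTE against ICH, Ftl1, Slc11a1, Steap3, Slc40a1 and Fth1 were lower and Tfrc was higher. That is 6 of 10 genes, where 56.9% of all genes were called, 30.5% as lower and 26.4% as higher, again close to the background. The groups did not overlap for 7 genes, against 64.7% of all genes. The median of the 10 genes was -0.77 and that of all genes -0.02. In ICH+PTE against sham, Fth1, Ftl1, Slc11a1 and Cp were higher and 0 were lower, with 23.4% of all genes called, 11.3% as higher and 12.1% as lower. The groups did not overlap for 4 genes, against 38.6% of all genes. The median was 0.58 for the 10 genes and -0.03 for all genes. The 3 comparisons share libraries, so they are not independent of each other.

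**Figure D1:**
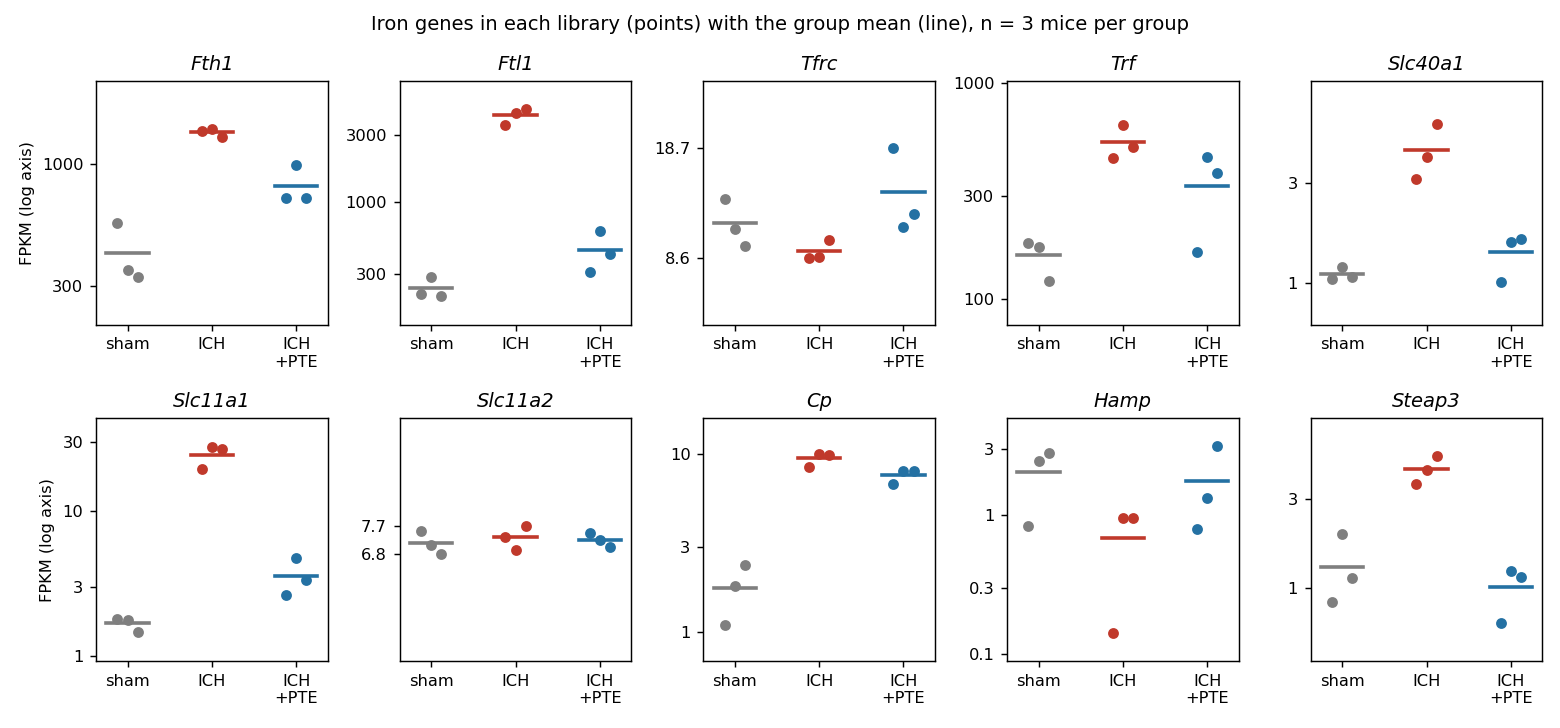
FPKM (log axis, scaled per gene) of the 10 iron genes in each library, as points, with the group mean as a line, for 3 mice per group. Ftl1, Slc11a1, Slc40a1 and Steap3 stand high in the 3 ICH libraries and low in the others, Cp stands high in both ICH groups, and Slc11a2 lies between 6.82 and 7.71 FPKM throughout.

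Ftl1 (chromosome 7, 45457944 to 45459884), the light chain that favours mineral formation inside the shell, showed the largest rise of the 10 genes. Its level was 215, 288 and 207 FPKM in the sham mice, 3554, 4364 and 4630 in the ICH mice, and 313, 618 and 417 in the ICH+PTE mice. Each ICH library lay far above all others, and the sham and ICH+PTE libraries also did not overlap. The ICH mean was 17.7 times that of sham, a log2 difference of 4.15 ± 0.24 (limma adjusted p = 1.02e-06). ICH+PTE differed from ICH by -3.26 ± 0.24 (limma adjusted p = 1.02e-05) and from sham by 0.88 ± 0.24 (limma adjusted p = 0.0244). The last call was lost without sham replicate 1 (limma adjusted p = 0.0704), without sham replicate 3 (0.0856) or without ICH+PTE replicate 2 (0.0617). In the ICH libraries Ftl1 ranked 14, 5 and 5 among all genes of the table by FPKM.

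Copies of Ftl1 elsewhere in the genome share much of its sequence, and how the authors' counting divided reads between them is not stated. The named copies Ftl1-ps1, Ftl1-ps2 and Ftl2-ps together came to between 2.27% and 2.65% of the Ftl1 level in every library. Ftl1-ps1 rose from a mean of 4.08 to 65.1 FPKM after ICH (log2 difference 3.84, limma adjusted p = 9.13e-07). Summing the copies with Ftl1 gave a log2 difference of 4.14 between ICH and sham.

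Fth1 (chromosome 19, 9980598 to 9985092), the heavy chain that oxidises iron as it enters ferritin, moved in the same directions over a smaller range. It measured 561, 353 and 328 FPKM in sham, 1377, 1413 and 1299 in ICH, and 714, 993 and 715 in ICH+PTE. The 3 groups formed separate bands, with ICH+PTE in the middle. The difference from sham was 1.76 ± 0.21 after ICH (limma adjusted p = 5.55e-05) and 0.99 ± 0.21 in ICH+PTE (limma adjusted p = 0.00906). ICH+PTE differed from ICH by -0.77 ± 0.21 (limma adjusted p = 0.0100). This fall depended on scaling: it was -0.54 with haemoglobin and mitochondrially encoded genes removed before scaling (limma adjusted p = 0.0658) and -0.16 after quantile normalization (limma adjusted p = 0.421).

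The chains changed places in the order of levels. Fth1 exceeded Ftl1 in each sham and ICH+PTE library, and Ftl1 exceeded Fth1 in each ICH library. The Ftl1 to Fth1 ratio within a library was 0.383, 0.815 and 0.631 in sham, 2.58, 3.09 and 3.56 in ICH, and 0.439, 0.623 and 0.583 in ICH+PTE. On the log2 scale the group means were -0.78 ± 0.55, 1.61 ± 0.23 and -0.88 ± 0.27. The ratio differed among the groups by an exact permutation test of the F statistic over 1680 assignments of the libraries (p = 0.0286, adjusted p = 0.0357 over the 5 ratios examined). For a single pair of groups of 3 the smallest two-sided exact p is 0.1, which was reached for ICH against each of the others, and the pair sham and ICH+PTE gave an exact permutation p of 0.8. As a share of summed FPKM both chains together took 0.199% to 0.264% of sham libraries, 1.55% to 1.91% of ICH libraries and 0.327% to 0.503% of ICH+PTE libraries.

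**Figure D2:**
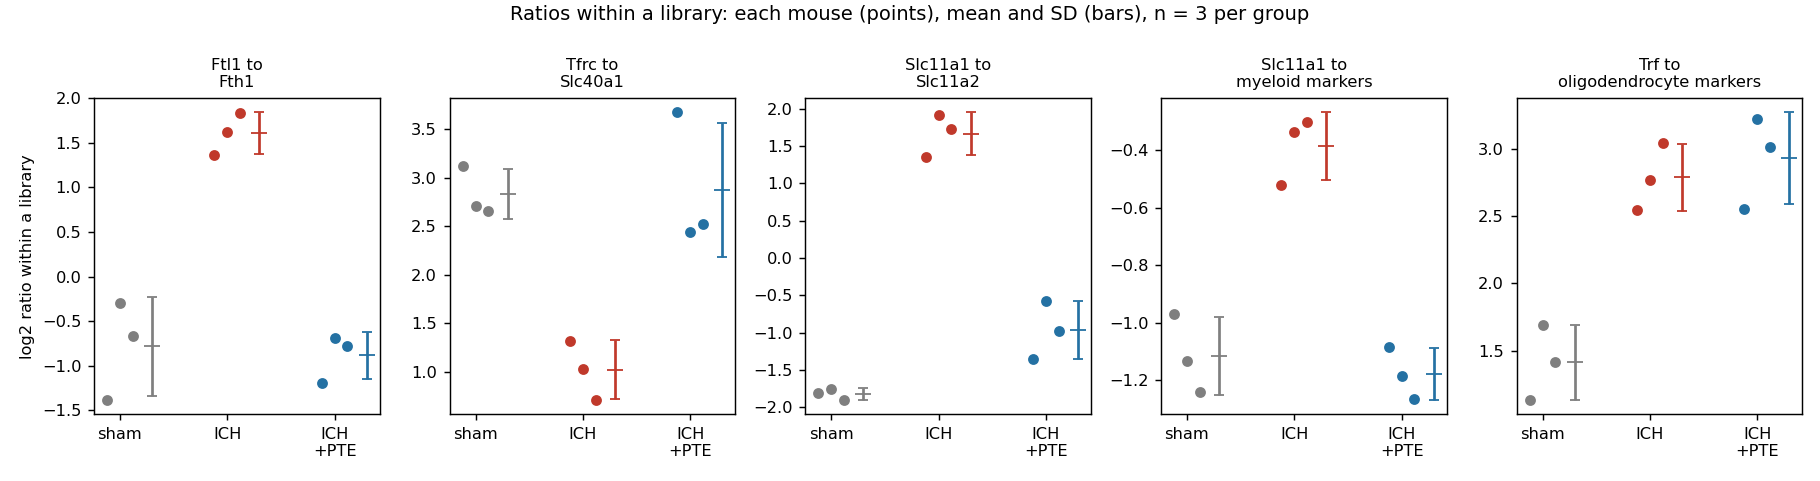
Ratios on the log2 scale within each library (points) with the mean and SD of the 3 mice of each group (bars). Ftl1 to Fth1, Slc11a1 to Slc11a2 and Slc11a1 to myeloid markers are highest in the 3 ICH libraries, Tfrc to Slc40a1 is lowest there, and Trf to oligodendrocyte markers is high in both ICH groups.

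Transferrin (Trf, chromosome 9, 103204001 to 103230444) is the iron carrier of plasma, and in the brain oligodendrocytes and choroid plexus make its RNA. Its levels were 182, 175 and 122 FPKM in sham, 451, 638 and 505 in ICH, and 165, 457 and 385 in ICH+PTE. All ICH mice were above all sham mice, while ICH+PTE replicate 1 lay within the sham range and its group mates near or within the ICH range. ICH exceeded sham by 1.74 ± 0.33 (limma adjusted p = 0.00115). ICH+PTE differed from ICH by -0.77, with a 95% interval from -1.52 to -0.03 (limma adjusted p = 0.0702), and from sham by 0.96 (limma adjusted p = 0.0624). Without ICH+PTE replicate 1 the difference from sham was 1.41 (limma adjusted p = 0.00265) and that from ICH -0.33 (limma adjusted p = 0.211). Without ICH+PTE replicate 2 the difference from ICH was -1.06 (limma adjusted p = 0.0208).

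Of 12 oligodendrocyte markers tested, 2 were higher and 0 lower after ICH, and 8 were lower and 0 higher in ICH+PTE against ICH. Their summed level ran from 1054 to 1897 FPKM for sham, 1515 to 2243 for ICH and 814 to 1309 for ICH+PTE. The log2 level of Trf above the mean of these markers was 1.41 ± 0.28 in sham, 2.79 ± 0.25 in ICH and 2.93 ± 0.34 in ICH+PTE (exact permutation F test, p = 0.025, adjusted p = 0.0357). On this measure both haemorrhage groups stood above sham without overlap (exact permutation p = 0.1 for each pair, the smallest possible), and ICH+PTE against ICH gave 0.14 (exact permutation p = 0.7). The 8 choroid plexus markers varied widely inside every group, summing to 91.0 to 1035 FPKM for sham, 68.3 to 949 for ICH and 36.3 to 475 for ICH+PTE. The highest sum of each group was mostly Ttr, at 933 FPKM in sham replicate 1, 881 in ICH replicate 1 and 389 in ICH+PTE replicate 1. Of the 8 markers, 1 was called higher and 1 lower after ICH. The part of the choroid plexus markers in the Trf result was not tested.

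The transferrin receptor gene Tfrc (chromosome 16, 32608920 to 32632794), whose RNA iron-poor cells keep, did not follow its ligand. It measured 12.99, 10.5 and 9.38 FPKM in sham, 8.57, 8.67 and 9.74 in ICH, and 18.7, 10.7 and 11.7 in ICH+PTE. Sham and ICH overlapped, with a log2 difference of -0.26 and a 95% interval from -0.69 to 0.17 (limma adjusted p = 0.259). Each ICH+PTE library was above each ICH library, by 0.54 ± 0.19 on average (limma adjusted p = 0.0344), and the highest value of all belonged to ICH+PTE replicate 1. Without that library the difference was 0.31 (limma adjusted p = 0.0861), and the call was also lost without ICH replicate 1 (0.0858), replicate 2 (0.0884) or replicate 3 (0.0536). ICH+PTE against sham gave 0.28 (limma adjusted p = 0.317). Of 10 neuron markers, 10 were lower after ICH and 8 higher in ICH+PTE against ICH, with medians of -1.38 and 1.29. Of all genes 32.1% and 26.4% were called so. The neuron markers summed to 675 to 711 FPKM for sham, 252 to 327 for ICH and 522 to 752 for ICH+PTE. Markers of dividing cells went the other way. All 12 were higher after ICH and all 12 lower in ICH+PTE against ICH, with medians of 2.45 and -1.62. Of all genes 31.6% and 30.5% were called so. The part of either list in the Tfrc result was not tested.

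Steap3 (chromosome 1, 120190757 to 120271082) encodes an endosomal ferrireductase of the transferrin cycle. It was listed at 0.840, 1.94 and 1.14 FPKM in sham, 3.60, 4.31 and 5.12 in ICH, and 0.649, 1.24 and 1.14 in ICH+PTE. The ICH libraries were all above the rest, and sham and ICH+PTE overlapped. The log2 difference was 1.46 ± 0.24 for ICH against sham (limma adjusted p = 4.65e-04), -1.69 ± 0.24 for ICH+PTE against ICH (limma adjusted p = 2.94e-04) and -0.24 for ICH+PTE against sham (limma adjusted p = 0.511, 95% interval -0.78 to 0.30).

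Both divalent metal transporters of the SLC11 family were measured. Slc11a2 (chromosome 15, 100387898 to 100424092), also called DMT1, carries ferrous iron out of the endosome and across the gut wall. Its level was 7.54, 7.07 and 6.82 FPKM in sham, 7.33, 6.94 and 7.71 in ICH, and 7.45, 7.25 and 7.02 in ICH+PTE. The groups overlapped, and the log2 differences were 0.03, -0.01 and 0.02 with limma adjusted p of 0.760, 0.896 and 0.901. Their 95% intervals reached from -0.17 to 0.23 for ICH against sham and from -0.21 to 0.19 for ICH+PTE against ICH, and the sign of these small differences changed with scaling.

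Slc11a1 (chromosome 1, 74375195 to 74386052), NRAMP1, sits in the phagosome membrane of macrophages and removes divalent metals from it. Its level was 1.80, 1.75 and 1.46 FPKM in sham, 19.4, 27.6 and 26.7 in ICH, and 2.62, 4.71 and 3.34 in ICH+PTE. The 3 groups did not overlap. ICH exceeded sham by 3.52 ± 0.19 (limma adjusted p = 9.13e-07), ICH+PTE differed from ICH by -2.64 ± 0.19 (limma adjusted p = 1.04e-05), and ICH+PTE exceeded sham by 0.87 ± 0.19 (limma adjusted p = 0.0110). The log2 ratio of Slc11a1 to Slc11a2 was -1.82 ± 0.08 in sham, 1.66 ± 0.29 in ICH and -0.96 ± 0.39 in ICH+PTE, and its exact permutation F test gave p = 0.00357 (adjusted p = 0.0179), the smallest p these assignments can give.

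Markers of microglia and macrophages moved with Slc11a1, Ftl1, Slc40a1 and Steap3. All 14 tested of 15 listed were higher after ICH, 13 were lower in ICH+PTE against ICH, and 8 were higher in ICH+PTE against sham. Their summed level was 121 to 160 FPKM for sham, 1552 to 1974 for ICH and 179 to 342 for ICH+PTE, and 0 of the 15 were at 0 in all libraries. The log2 level of Slc11a1 minus the mean of these markers was -1.12 ± 0.14 in sham, -0.39 ± 0.12 in ICH and -1.18 ± 0.09 in ICH+PTE (exact permutation F test, p = 0.0214, adjusted p = 0.0357). Relative to their mean, Slc11a1 was higher in each ICH library than in each other library (exact permutation p = 0.1 for each pair with ICH, the smallest possible). That mean took in Cd163, which did not pass the filter for testing. The 14 tested markers rose by 1.63 (Csf1r) to 5.20 (Msr1) after ICH, on both sides of Slc11a1 at 3.52. In ICH+PTE against ICH they ran from -3.65 (Cd68) to -0.40 (Mrc1), again on both sides of Slc11a1 at -2.64. The part of the myeloid markers in the change of the other genes was not tested. Of 7 markers of homeostatic microglia 4 were higher and 0 lower after ICH, all 7 were lower in ICH+PTE against ICH, and 0 were higher and 2 lower in ICH+PTE against sham, P2ry12 by -0.61 and Siglech by -1.07 (limma adjusted p = 0.0156 and 0.00929). Neutrophil markers, 4 tested of 11 listed, summed to 1.04 to 1.66 FPKM for sham, 22.5 to 35.0 for ICH and 15.9 to 33.1 for ICH+PTE.

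**Figure D3:**
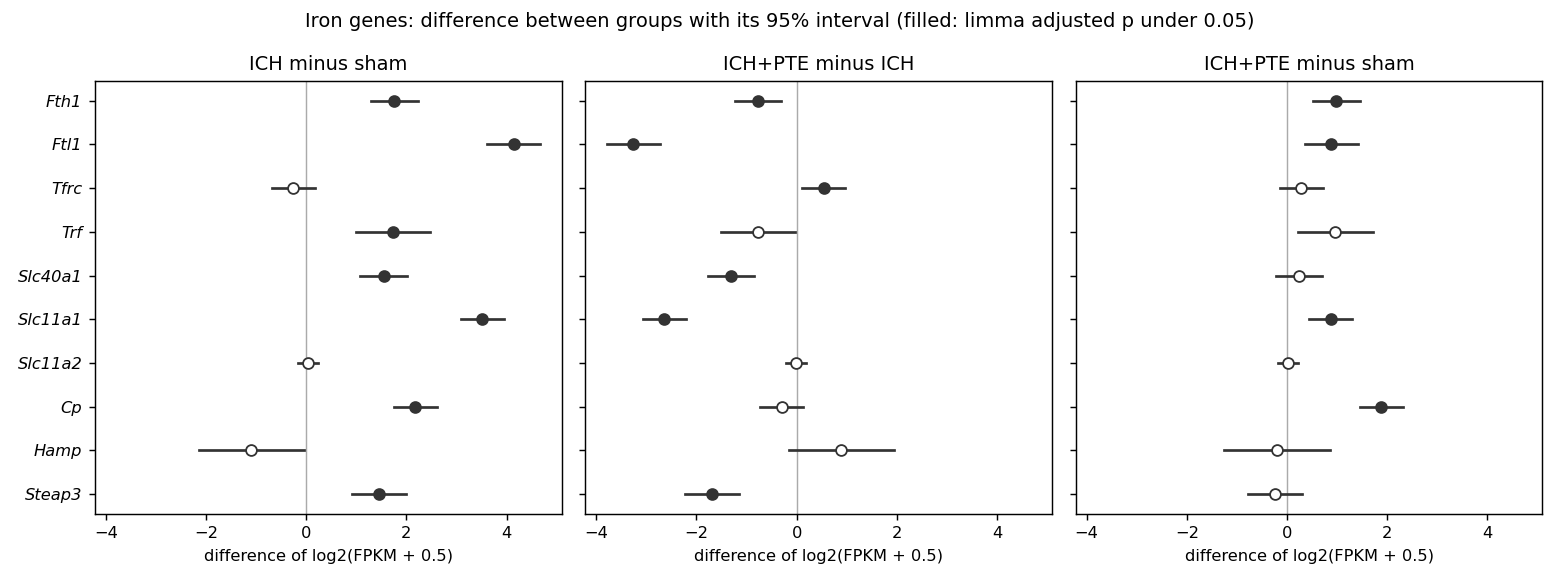
Differences of log2(FPKM + 0.5) between groups for the 10 iron genes (points) with 95% intervals (lines), filled where the limma adjusted p is under 0.05. Ftl1 and Slc11a1 lie farthest from 0 in the first 2 panels, at 4.15 and 3.52 and at -3.26 and -2.64, and Cp lies farthest from 0 in the third, at 1.88.

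Ferroportin (Slc40a1, chromosome 1, 45908068 to 45926523) exports iron and is made by iron-recycling macrophages and by endothelial and other brain cells. It was listed at 1.05, 1.19 and 1.07 FPKM in sham, 3.14, 3.99 and 5.77 in ICH, and 1.01, 1.57 and 1.63 in ICH+PTE. Every ICH library was above the others, and sham and ICH+PTE overlapped. The log2 difference was 1.55 ± 0.21 for ICH against sham (limma adjusted p = 1.18e-04), -1.31 ± 0.21 for ICH+PTE against ICH (limma adjusted p = 5.14e-04) and 0.23 for ICH+PTE against sham (limma adjusted p = 0.446, 95% interval -0.23 to 0.70). The receptor stood closer to the exporter after ICH: the log2 ratio of Tfrc to Slc40a1 was 2.83 ± 0.26 in sham, 1.02 ± 0.31 in ICH and 2.88 ± 0.69 in ICH+PTE (exact permutation F test, p = 0.0357, adjusted p = 0.0357). ICH did not overlap with either group, while sham and ICH+PTE overlapped (exact permutation p = 1).

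Ceruloplasmin (Cp, chromosome 3, 19957054 to 20009145), the ferroxidase of plasma that astrocytes also carry on their surface, set ICH+PTE apart from sham most clearly. It measured 1.09, 1.81 and 2.39 FPKM in sham, 8.47, 10.03 and 9.97 in ICH, and 6.80, 8.07 and 8.00 in ICH+PTE. Both haemorrhage groups were above sham, and the ICH+PTE libraries all lay a little below the ICH libraries. The log2 difference from sham was 2.18 ± 0.19 after ICH (limma adjusted p = 9.63e-06) and 1.88 ± 0.19 in ICH+PTE (limma adjusted p = 2.50e-04). Between the haemorrhage groups it was -0.30, with a 95% interval from -0.73 to 0.13 (limma adjusted p = 0.207). Summed astrocyte markers were 564 to 700 FPKM for sham, 1039 to 1052 for ICH and 751 to 936 for ICH+PTE, and of the 8 tested 4 were higher and 3 lower after ICH. The rise of the sum rested on Gfap, since the other 7 markers summed to 446 to 477, 343 to 419 and 393 to 426 FPKM. Summed endothelial markers were 79.9 to 91.4, 212 to 218 and 150 to 208 FPKM, with 9 of 10 higher after ICH. The part of either list in the Cp result was not tested.

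Hepcidin (Hamp, chromosome 7, 30942368 to 30944032), the peptide that closes ferroportin, is chiefly a liver hormone. It was listed at 0.837, 2.48 and 2.82 FPKM in sham, 0.142, 0.959 and 0.956 in ICH, and 0.795, 1.34 and 3.16 in ICH+PTE. It reached 1 FPKM in 4 libraries, 2 of them sham and 2 ICH+PTE, and all groups overlapped. The log2 difference was -1.09 ± 0.47 for ICH against sham (limma adjusted p = 0.0655), 0.89 ± 0.47 for ICH+PTE against ICH (limma adjusted p = 0.130) and -0.20 ± 0.47 for ICH+PTE against sham (limma adjusted p = 0.790), so none was called. The first difference was called without sham replicate 1 (-1.50, limma adjusted p = 0.0198), without ICH+PTE replicate 3 (limma adjusted p = 0.0440), and under the scaling alternatives given in the closing section, but it shrank to -0.70 without ICH replicate 1 (limma adjusted p = 0.231). The second ran from 0.48 without ICH+PTE replicate 3 to 1.23 without ICH+PTE replicate 1 and was not called without any 1 library.

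Transcripts typical of liver were present in these brain libraries. Albumin (Alb) was listed at 18.6, 38.1 and 41.6 FPKM in sham, 21.7, 26.8 and 25.9 in ICH, and 16.5, 19.8 and 47.6 in ICH+PTE. Within each group the order of the libraries by Alb was also their order by Hamp. Of 10 hepatocyte markers 9 were tested and 0 were called in any of the 3 comparisons. Without Ttr, which choroid plexus also makes, the other 9 markers summed to 41.2 to 97.5 FPKM for sham, 50.2 to 62.6 for ICH and 35.3 to 89.3 for ICH+PTE. The log2 level of Hamp minus their mean was -1.05 ± 0.16 in sham, -1.96 ± 0.52 in ICH and -0.82 ± 0.30 in ICH+PTE. On this measure, which was chosen after its values were seen and has no test, the ICH libraries did not overlap with the others. The part of liver transcripts in the Hamp result was not tested. Trf, which the liver also makes, was between 2.94 and 23.8 times the level of Alb.

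The order of levels shifted between groups. In sham it ran Fth1, Ftl1, Trf, Tfrc and Slc11a2, each clear of the next, followed by Hamp, Cp, Slc11a1, Steap3 and Slc40a1 with neighbours that overlapped. In ICH it ran Ftl1, Fth1, Trf and Slc11a1, then Cp and Tfrc (overlapping), Slc11a2, Steap3 and Slc40a1 (overlapping), and Hamp. In ICH+PTE it ran Fth1, then Ftl1 and Trf (overlapping), Tfrc, then Cp and Slc11a2 (overlapping), and last Slc11a1, Hamp, Slc40a1 and Steap3 with neighbours that overlapped.

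Among 12227 other tested genes with a mean of at least 2 FPKM, the profiles nearest to each iron gene over the 9 libraries were found by the root mean square difference of centred log2(FPKM + 0.5). Near Slc11a1 lay Ctss (0.12) and the copy Ftl2-ps (0.13), and the nearest to Ftl1 were Ftl1-ps1, Fcer1g and C1qb (each 0.14). Slc40a1 was nearest to Myh9, Lima1 (each 0.15) and Slc26a11 (0.15), and Steap3 to Gmip (0.16), Csk (0.18) and Selplg (0.19). Cp was nearest to Vwf (0.14), Aspg (0.20) and Glipr2 (0.24). Fth1 was nearest to Mir703 (0.13), Gm4332 (0.15) and Rpl23 (0.16), Tfrc to Uri1 (0.09), Trub1 (0.10) and Zfp777 (0.11), and Slc11a2 to Nup107 (0.04), Poldip2 and Mrpl37 (each 0.05). Trf had its nearest profiles at 0.22 (Pla2g4a), 0.23 (Adgrl4) and 0.24 (Jpt2). Those of Hamp lay farthest away, at 0.36 (Heatr5b), 0.37 (Hipk2) and 0.39 (Klf12). This distance also grows with the scatter between libraries, and Hamp reached 1 FPKM in only 4 of them.

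Beyond the 10 genes, 40 further genes of iron handling were listed, of which 39 were found by symbol and 29 tested. After ICH 14 were higher and 7 lower than in sham (median log2 difference 0.26). In ICH+PTE against ICH 6 were higher and 12 lower (median -0.14), and in ICH+PTE against sham 5 were higher and 4 lower (median 0.07). The share called, 21 of 29 in the first comparison, is to be read against the 63.7% of all genes. In the second comparison 56.9% of all genes were called, 26.4% as higher and 30.5% as lower. In the third 23.4% were called, 11.3% as higher and 12.1% as lower. The medians over all tested genes were -0.02, -0.02 and -0.03.

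Against sham, the largest rises among them were those of Lcn2 and Steap4. Lcn2, lipocalin 2, which binds bacterial siderophores and is made by reactive astrocytes, measured 0.958, 3.02 and 7.07 FPKM in sham, 103, 91.7 and 69.8 in ICH, and 100.2, 103 and 80.9 in ICH+PTE. It was high in every haemorrhage library with or without pterostilbene, by 4.69 and 4.81 over sham (limma adjusted p = 1.72e-05 and 1.83e-04). Its receptor gene Slc22a17 was lower than sham in both, by -1.02 (limma adjusted p = 5.19e-05) and -0.57 (limma adjusted p = 0.00885). Steap4, a metalloreductase, was higher by 3.02 after ICH and by 1.87 in ICH+PTE (limma adjusted p = 5.78e-06 and 9.15e-04).

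Genes of hepcidin control and of other iron routes followed. Hfe, a partner of the transferrin receptor, was higher than sham by 2.32 after ICH and 1.12 in ICH+PTE (limma adjusted p = 1.15e-06 and 6.73e-04), and lower in ICH+PTE than in ICH by -1.20 (limma adjusted p = 8.71e-05). Slc39a8 and Slc39a14 encode zinc transporters that also carry iron. Slc39a8 was higher by 1.40 after ICH and lower by -1.02 in ICH+PTE against ICH (limma adjusted p = 9.81e-05 and 0.00101), whereas Slc39a14 was higher than sham by 0.96 after ICH and by 1.26 in ICH+PTE (limma adjusted p = 4.60e-05 and 1.21e-04) and higher by 0.30 in ICH+PTE than in ICH (limma adjusted p = 0.0422). Bmp6, the ligand that drives hepcidin in the liver, was lower than sham by -0.55 after ICH and -0.68 in ICH+PTE (limma adjusted p = 0.0470 and 0.0473), and Il6, an inducer of hepcidin in liver, stayed between 0 and 0.528 FPKM.

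Among the other named genes, the falls after ICH were -0.40 for Neo1, a co-receptor of hepcidin control, and -0.32 for Exoc6, an exocyst subunit of transferrin recycling (limma adjusted p = 0.00620 and 0.0373). Exoc6 was also lower in ICH+PTE than in sham, by -0.38 (limma adjusted p = 0.0467). In ICH+PTE against ICH, Slc22a17 was higher by 0.45, Neo1 by 0.44, Ireb2 by 0.40 and Fbxl5 by 0.33 (limma adjusted p = 0.00914, 0.00418, 0.00537 and 0.0160). Ireb2 encodes an iron regulatory protein that binds hairpins such as those printed above, and Fbxl5 the ubiquitin ligase that degrades it when iron is plentiful. Both genes were lower after ICH than in sham, by -0.28 for Ireb2 and -0.26 for Fbxl5 (limma adjusted p = 0.0273 and 0.0376). In ICH+PTE against sham neither was called, at 0.12 and 0.07 (limma adjusted p = 0.385 and 0.661). Aco1, which encodes the other iron regulatory protein, went the opposite way, higher by 0.73 after ICH and lower by -0.48 in ICH+PTE against ICH (limma adjusted p = 2.52e-04 and 0.00450), and is added here after its values were seen. Against ICH, 8 of the 10 neuron markers given beside Tfrc were higher in ICH+PTE, like Slc22a17, Neo1, Ireb2 and Fbxl5, and the part of the markers in these differences was not tested. Steap4 was lower by -1.15 (limma adjusted p = 0.00272).

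**Figure D4:**
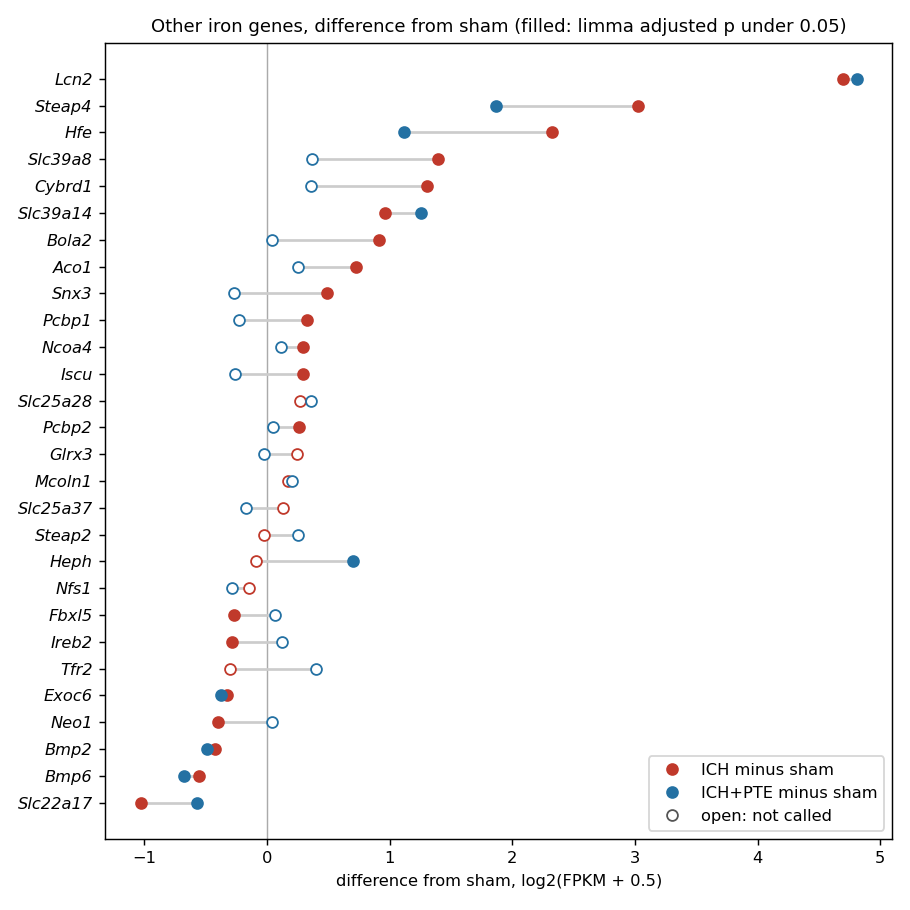
Differences from sham in log2(FPKM + 0.5) for 28 of the 29 tested further iron genes, ICH in red and ICH+PTE in blue, filled where the limma adjusted p is under 0.05. Lcn2 stands at 4.69 and 4.81 in the haemorrhage groups, while Steap4 and Hfe lie nearer to sham in ICH+PTE than in ICH.

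Libraries of the same group were not uniform. ICH+PTE replicate 1 had the lowest level of its group for 8 of the 10 genes and the highest for the others, Tfrc and Slc11a2, although Fth1 was close to that of replicate 3. Leaving it out kept the counts at 7 higher in ICH against sham, gave 0 higher and 5 lower in ICH+PTE against ICH, and gave 5 higher in ICH+PTE against sham. Red cell markers summed to 12.2 to 32.5 FPKM for sham, 60.5 to 92.4 for ICH and 30.5 to 266 for ICH+PTE, where the highest value belonged to replicate 3, while Slc4a1, a membrane protein of red cells, was at or near 0 in all libraries. Of the intestinal markers Fabp1, which liver also makes, was at 5.01 to 10.7 FPKM for sham, 5.43 to 7.99 for ICH and 2.03 to 8.37 for ICH+PTE, and was not called in any comparison. Defa24, named after its values were seen, was listed at 0 in the 6 sham and ICH libraries and at 2.92, 0.833 and 2.53 FPKM in ICH+PTE. The intestinal list summed to 8.61 to 13.9, 11.0 to 11.5 and 12.2 to 22.3 FPKM in sham, ICH and ICH+PTE, and without Fabp1 to 3.15 to 3.76, 3.53 to 5.54 and 9.22 to 13.96 FPKM. Its part in the levels of Slc11a2 and Slc40a1, which the gut also makes, was not tested.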

How the data were processed

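The authors deposited 1 table of FPKM values for 9 libraries of oligo(dT)-selected RNA, for which the submitters' processing notes name StringTie 1.3.4d, HISAT2 2.0.4 and cutadapt 1.9. For the genome build, not given in the sources used, no choice was made: gene coordinates are printed as deposited, and 4 of the 10 genes differ in them from GENCODE M21 (GRCm38). Whether the strand was used in quantification is not stated. Depth could not be recovered: at most 7.96% of low values lay within 0.02 of a whole read step, where 4% would by even spread, so no counting interval is given.

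From these values, log2(FPKM + 0.5) was fitted in R 4.3.3 with limma 3.58.1, as 3 group means (6 residual degrees of freedom) with a mean-variance trend, for genes reaching 1 FPKM in 3 libraries or more, adjusted by Benjamini-Hochberg over all 15376. The procedure was tested on simulated data. Ratios were compared by exact permutation. Alternatives covered pseudocounts, filters, scalings, library weights, left-out libraries and a replicate block. The iron genes and all lists were chosen with earlier results of these data known. Named further iron genes are up to 4 called with the largest rise and 4 with the largest fall per comparison, at a mean of at least 2 FPKM in the higher group, and 3 nearest profiles are named per gene. Aside from these, marker genes were named after their values were seen. Some genes that these rules name are not reported here.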

Additional observations from a re-analysis of the deposited data

How the results depend on the processing

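Most values kept their direction and their side of the threshold under every alternative run: changed filters, pseudocounts, scalings and weights, libraries left out in turn, and the Ftl1 copies summed, which was chosen after seeing the data. Testing all genes above 0 in any library called 2 of the 10 iron genes in ICH+PTE against sham, not 4 (limma adjusted p = 0.0591 for Fth1 and 0.113 for Ftl1), and lost Fth1 (0.0618) and Tfrc (0.0952) in ICH+PTE against ICH. Among the further iron genes, TPM gave 14 calls in ICH+PTE against sham, not 9, of which 9 were lower. The cause was not tested in either case.

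Slc11a2, never called, changed sign: -0.13, 0.0209 and -0.11 with TPM in the order of comparisons above, -0.0080 and 0.055 (first and second) with quantile normalization, and -0.09 and 0.21 without haemoglobin and mitochondrially encoded genes. The Tfrc to Slc40a1 ratio in ICH+PTE against sham was -0.0061 with a pseudocount of 0.1. Hamp was called lower in ICH against sham with TPM (-1.62, limma adjusted p = 0.0488), quantile normalization (0.0401), the genes removed (0.0460) and array weights (0.00959). Trf was called higher in ICH+PTE against sham with median of ratios scaling (limma adjusted p = 0.0461), the genes removed (0.0430) and array weights (0.0111). Scaling moved the median of all genes: to -0.19, 0.01 and -0.16 with TPM, to -0.12, 0.06 and -0.03 with quantile normalization, and to -0.14, 0.19 and 0.07 with the genes removed. With the genes removed, 5929 genes were higher and 3263 lower in ICH+PTE against ICH, where 4065 and 4683 had been called, and with TPM 1293 and 2942 in ICH+PTE against sham, where 1736 and 1867 had been called.

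With 1 library left out, further iron genes called after ICH numbered 12 to 22, with 12 without sham replicate 3, ICH replicate 2 or ICH replicate 3, while the 10 iron genes gave 7 to 8, 5 to 7 and 3 to 5 calls. Uncalled differences crossed 0: Slc11a2 from -0.0018 to 0.0705, -0.0512 to 0.0204 and -0.0118 to 0.0555, and in ICH+PTE against sham Hamp from -0.62 to 0.13 and Steap3 from -0.43 to 0.0042. So did ratios in ICH+PTE against sham, from -0.40 to 0.14 for Ftl1 to Fth1, -0.35 to 0.27 for Tfrc to Slc40a1 and -0.13 to 0.0092 for Slc11a1 to myeloid markers, and Trf to oligodendrocyte markers from -0.0026 to 0.33 in ICH+PTE against ICH.

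Deviations from the group means of mice with the same replicate number in different groups correlated at 0.0031 to 0.25, all 9 above 0 but only 3 over 0.1, and other pairs at -0.30 to 0.19, with 8 of 18 above 0. A library correlated best with its own number in 7 of 18 cases. The main fit did not take the numbers as pairs. In each group, however, replicate 1 had the highest Ttr, at 933 FPKM in sham, 881 in ICH and 389 in ICH+PTE. It also had the lowest Alb and Hamp of its group. Whether mice of the same number shared a batch is not stated, and its part in the results was not tested. A replicate block called Hamp in ICH against sham (limma adjusted p = 0.00197) and in ICH+PTE against ICH (0.00663), and Trf in ICH+PTE against ICH (0.0493) and against sham (0.0445). Groups of 3 and unknown depth limit what low genes such as Hamp, Steap3 and Slc40a1 can show.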
